A study of Homo sapiens with 24 samples.

Results

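The first hour after INTS11 was targeted for degradation was read from 4 of the 24 libraries of a TT-seq series in DLD1 cells, a human colorectal adenocarcinoma line. The 4 libraries were chosen by their labels alone: from the second batch, the INTS11-dTAG line at 0 h (2 libraries) and at 1 h of dTAG13 (2 libraries). In this line a dTAG tag was knocked in at the INTS11 gene, so that dTAG13, a small molecule that brings the tagged protein to an E3 ubiquitin ligase, directs it to degradation. Both groups carry the tag and differ by label only in time on dTAG13. The study set the endonuclease part of Integrator against its phosphatase part. Other groups used for comparison were the same line after 3 h in the same batch, a line with the tag on INTS8 and a variant labelled N211del (INTS8-N211del) at 0 and 1 h, and, from batch 1, the INTS11 line after 3 h of DMSO or of dTAG13, each with 2 libraries.

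TT-seq labels RNA for a short time in living cells and sequences the labelled RNA, so it reads recent synthesis. Integrator is a large complex that meets RNA polymerase II soon after it starts. INTS11 is its RNA endonuclease, which cuts the nascent RNA at small nuclear RNA genes and near the promoters of many coding genes and so ends transcription early, while INTS8 helps to hold the phosphatase PP2A on the complex. Among the genes known for such early control in other cells are immediate early genes, which answer growth signals within minutes.

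The batch had no vehicle group and no untagged line, so vehicle, handling, time and dTAG13 itself cannot be told apart from loss of INTS11. INTS11, INTS8 and PPP2CA were not analysed here, and the tag acts on protein, so its loss could not be read from RNA. A deposited value was a whole-number unit per kilobase of gene, introns included, times 1 factor per library, which was 0.597 and 0.669 at 0 h and 0.590 and 0.619 at 1 h. The listed genes held 9023816 to 11268971 units per library, with a median of 581 to 771 units per gene. Scaled by library totals, the 0 h libraries differed by about counting noise (chi-square of 1.02 per gene) and the 1 h libraries by more (1.49). Scaled by the deposited factors, as all values here are, both pairs differed by more than counting noise (2.31 at 0 h and 2.22 at 1 h). Each group was kept as n = 2, since the design calls them biological duplicates, and p-values rest on the spread between such pairs. Epithelial markers such as EPCAM, CDH1 and KRT8 were among the 11 of 16 intestinal markers listed, with summed values of 3370 to 3538 at 0 h and 3383 to 3425 at 1 h. CDX1, VIL1, GPA33, HNF4A and ELF3 were not listed, and 9 of the 11 reached the level needed for testing. Of the fibroblast, endothelial and blood markers, COL1A1 was listed at 0.0381 to 0.318 and ERG at 0.338 to 0.721 in the 4 libraries, and no other was listed. In bulk samples, fewer cells of a type and less RNA per cell cannot be told apart.

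Synthesis of many genes changed by 1 h, mostly by little and mostly upward on the deposited scale. Of 6950 genes tested, 3882 (55.9%) passed an adjusted p of 0.05 in limma, 3197 higher (46.0%) and 685 lower (9.86%). At 1.5-fold or more, 1004 were higher (14.4%) and 31 lower (0.446%). The median gene stood 0.16 higher on the log2 scale (1.11-fold), and 0.12 to 0.19 higher with 1 library left out. This shift depends on the library factors, which all genes share. The median standard error of a gene, 0.058, therefore does not measure its uncertainty. With each library centred on its median gene the split was nearly even, 2016 higher (29.0%) and 2108 lower (30.3%), and 670 (9.64%) and 79 (1.14%) moved at least 1.5-fold. Centring thus removed the excess of rises over falls among small changes, while at 1.5-fold and beyond rises outnumbered falls on both scales. Log2 changes below are on the deposited scale, to be read against that median of 0.16, and count as calls only at an adjusted p under 0.05. Leaving out 0 h replicate 1 gave 442 lower genes, and leaving out 1 h replicate 2 gave 457.

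**Figure D1:**
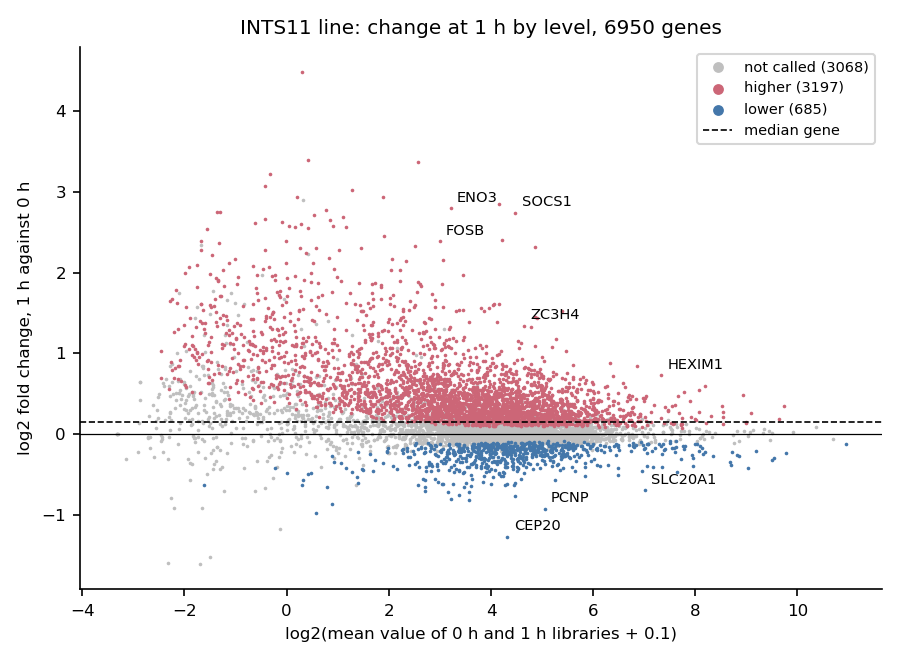
Log2 fold change at 1 h against 0 h (vertical) by log2 mean value of the 4 libraries (horizontal) for 6950 genes, with 3197 called higher, 685 called lower and the rest in grey. The dashed line is the median gene at 0.16, and the large rises lie among genes of low level.

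The largest rises were of genes with few units at 0 h. Of the 12 largest, 11 had fewer than 20 units in each 0 h library, as had 7.01% of all genes tested. The 12 were BHLHA9, CARD6, SPAAR, SKIDA1, SLC25A45, ASB2, DIO3, ENO3, PRDM7, SOCS1, DLX1 and ACOT6. SOCS1, which dampens cytokine signalling through JAK kinases, and ENO3, the muscle form of the glycolytic enzyme enolase, had more than 100 units in each 1 h library, and their promoters are shown to set beside those of the genes that fell. The 300 bases run from 250 before to 50 after the start in RefSeq (GRCh38.p14, a build other than the submitters' hg19), at chr16:11256155-11256454 on the minus strand for SOCS1 and chr17:4950302-4950601 on the plus strand for ENO3. Capitals mark matches to GC box (GGGCGG, either strand) and AP-1 site (TGANTCA) letters.
SOCS1: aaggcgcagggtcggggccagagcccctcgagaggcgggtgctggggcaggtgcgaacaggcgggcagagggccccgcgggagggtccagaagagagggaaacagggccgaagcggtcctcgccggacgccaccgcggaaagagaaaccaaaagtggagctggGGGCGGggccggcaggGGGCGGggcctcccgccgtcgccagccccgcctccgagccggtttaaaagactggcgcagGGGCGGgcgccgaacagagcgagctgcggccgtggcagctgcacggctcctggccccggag
ENO3: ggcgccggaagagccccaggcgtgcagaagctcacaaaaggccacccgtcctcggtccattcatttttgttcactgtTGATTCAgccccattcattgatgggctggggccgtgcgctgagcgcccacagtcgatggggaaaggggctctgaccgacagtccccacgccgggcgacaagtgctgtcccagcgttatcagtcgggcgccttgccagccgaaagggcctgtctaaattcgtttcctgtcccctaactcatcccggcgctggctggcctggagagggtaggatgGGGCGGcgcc

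SOCS1 stood at 5.56 and 5.84 at 0 h and at 38.8 and 38.6 at 1 h. Its groups lay far apart, a log2 change of 2.74 ± 0.10 (SE), or 6.69-fold (limma adjusted p = 3.24e-07). ENO3 stood at 2.55 and 1.94 and then at 15.21 and 17.02, a log2 change of 2.80 ± 0.12 (limma adjusted p = 6.62e-07). In both genes each 1 h library was several times each 0 h library, from 15 to 28 units up to 107 to 180.

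DIO3, an enzyme that inactivates thyroid hormone, went from 5.79 and 3.07 to 30.1 and 31.9, a log2 change of 2.85 ± 0.46. Its 0 h libraries held 19 and 9 units and its 1 h libraries 100 and 101. CARD6, a caspase-recruitment-domain protein, held 4 and 2 units at 0 h and 59 and 49 at 1 h, a log2 change of 3.40 ± 0.31. SPAAR, a small lysosomal polypeptide that restrains mTORC1, held 2 and 5 units and then 39 and 37, a log2 change of 3.37 ± 0.50. ASB2, an adaptor of a ubiquitin ligase, held 6 and 6 units and then 75 and 71, a log2 change of 2.93 ± 0.24. These genes had very few units before treatment and many times more after, in both libraries. BHLHA9, a basic helix-loop-helix factor, was listed at 0 in both 0 h libraries and held 6 and 3 units at 1 h, too few for a fold. The sources used here do not say if counting was by strand, so reads of overlapping genes may not be told apart. SLC25A45 and ACOT6 overlap the coding genes FRMD8 and HEATR4 in RefSeq, and their rises of 2.94 and 2.69 are uncertain. SOCS1 and ASB2 overlap other annotated genes that are not coding, and the same doubt holds for them. It also holds for several genes named below, among them EGR3, DUSP7, HEXIM1, BCL3, PROX1, AJUBA, SF3B1 and MED4. Genes not named by a rule, such as TCF4, FOXL1, KAZALD1 and CCDC80 below, were not checked for overlaps.

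At least 3-fold rises with 100 or more units in both 1 h libraries were called for 45 genes. Of these, 8 also had 100 or more units in both 0 h libraries, and 3 had fewer than 20 in each. The 4 named next were chosen after their values were seen. TCF4, an E-protein transcription factor, went from 0.532 and 0.548 to 2.75 and 2.84, or from 160 and 147 units to 837 and 824. FOXL1, a forkhead factor, went from 6.39 and 5.33 to 32.5 and 30.0. KAZALD1, a secreted matrix protein, went from 11.1 and 8.38 to 46.0 and 51.2, and CCDC80, another matrix protein, from 4.59 and 4.04 to 18.1 and 16.4. No 1 h library of these 4 genes overlapped a 0 h library, as was so for 60.1% of all genes tested in the upward direction and 16.2% in the downward one. Their log2 changes were 2.18, 2.40, 2.32 and 1.97. Levels can be compared between genes here because the values are per kilobase.

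The falls were smaller in fold. The 12 largest were CEP20, A3GALT2, PCNP, CLYBL, MICU2, PRPS1, FAF2, DNAJC13, ZCCHC10, AUH, ZNF784 and SLC20A1, with log2 changes of -1.27 to -0.69 and 39 to 4856 units at 0 h. CEP20, a protein of the centrosome, and PCNP, a PEST-containing nuclear protein, had the largest falls among those with over 100 units, and their promoters stand at chr16:15888554-15888853, minus strand, and chr3:101573930-101574229, plus strand. Capitals mark GC box (GGGCGG) and CCAAT box (CCAAT) letters on either strand. All 4 promoters shown hold a GC box. CEP20, PCNP, CLYBL, MICU2, FAF2 and ZCCHC10 overlap non-coding genes or pseudogenes in RefSeq, so the doubt about strand holds for these 6 falls too, and 0 of the 12 overlap another coding gene. The choice of these 4 was made after their values were seen.
CEP20: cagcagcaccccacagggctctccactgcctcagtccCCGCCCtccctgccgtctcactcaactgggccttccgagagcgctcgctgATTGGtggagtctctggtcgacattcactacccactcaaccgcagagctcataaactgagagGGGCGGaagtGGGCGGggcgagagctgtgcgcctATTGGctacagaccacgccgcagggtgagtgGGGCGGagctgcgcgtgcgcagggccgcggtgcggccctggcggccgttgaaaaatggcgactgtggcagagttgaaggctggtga
PCNP: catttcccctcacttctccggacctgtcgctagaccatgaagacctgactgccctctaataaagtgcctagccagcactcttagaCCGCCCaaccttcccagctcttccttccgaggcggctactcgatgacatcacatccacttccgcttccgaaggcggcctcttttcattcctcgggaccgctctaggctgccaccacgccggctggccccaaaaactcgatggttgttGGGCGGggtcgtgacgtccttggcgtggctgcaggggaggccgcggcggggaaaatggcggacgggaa

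CEP20 stood at 29.2 and 27.1 at 0 h and at 12.2 and 11.1 at 1 h, so 1 h values were 0.415 of those at 0 h on the fitted scale. Its log2 change was -1.27 ± 0.05 (limma adjusted p = 5.11e-07). PCNP stood at 44.3 and 42.4 and then at 23.6 and 22.1, a log2 change of -0.92 ± 0.05 (limma adjusted p = 1.64e-06). Replicates of these genes differed by a small part of the change, and the groups did not overlap.

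SLC20A1, a phosphate importer, was the most strongly transcribed of the 12, at 162 and 158 before and 101 and 97.6 after, a log2 change of -0.69. FAF2, which acts in degradation at the endoplasmic reticulum, went from 28.8 and 27.0 to 16.03 and 16.88. MICU2, a gatekeeper of mitochondrial calcium uptake, went from 14.97 and 14.99 to 8.70 and 8.23. In each of these 3 genes both 1 h libraries lay well below both 0 h libraries. PRPS1, which makes the precursor of nucleotides, fell by 0.80 on the log2 scale. AUH, an enzyme of leucine breakdown, fell by 0.71, and DNAJC13, an endosomal co-chaperone, by 0.75. The falls of A3GALT2 and ZNF784 rest on 20 to 52 units per library. Without 1 h replicate 2 the limma adjusted p of A3GALT2 was 0.0566 and that of ZNF784 0.0746, and ZNF784 also lost its call without 0 h replicate 2 (0.223) or without 1 h replicate 1 (0.167). Others of the 31 genes at least 1.5-fold lower, named after their values were seen, were TXNIP, an inhibitor of thioredoxin (-0.62), TSC1, which restrains mTORC1 (-0.62), LIN9 of the DREAM and MuvB cell cycle complexes (-0.63), CRY2, a clock repressor (-0.60), and LSM11, a U7 small nuclear ribonucleoprotein subunit (-0.59).

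**Figure D2:**
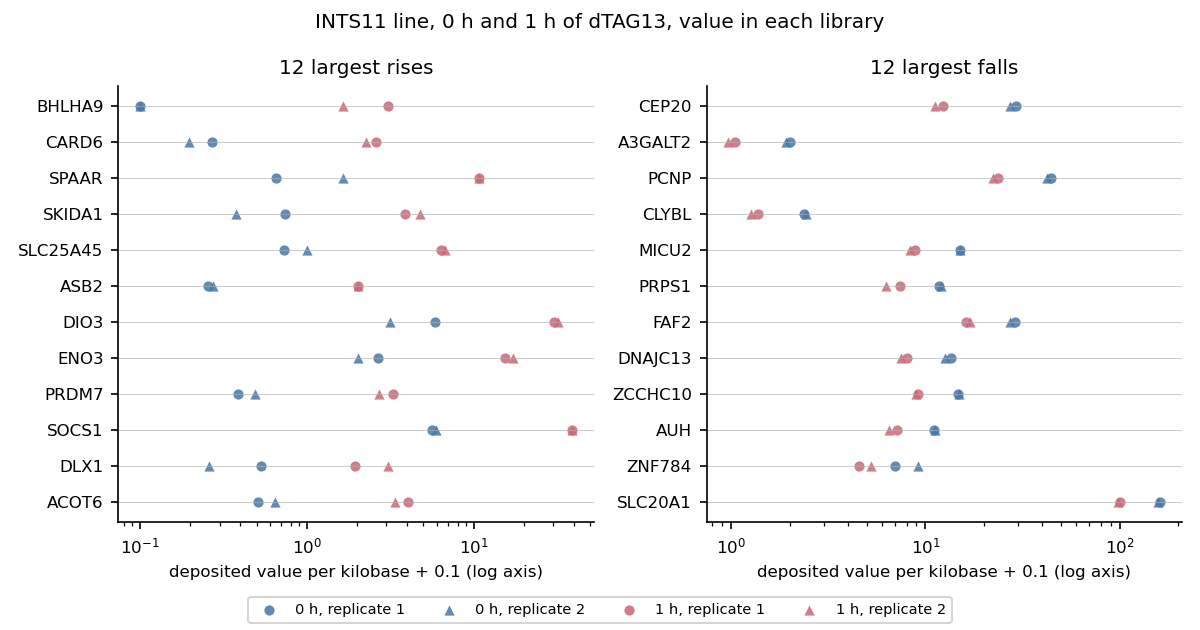
Deposited value plus 0.1 on a log axis (horizontal) in each INTS11 library at 0 h (blue) and 1 h (red) for the 12 largest rises (left) and 12 largest falls (right), with circles for replicate 1 and triangles for replicate 2. No 1 h library overlaps a 0 h library in any of the 24 genes, as the rule that named them required, and BHLHA9 at 0 h lies at 0.1 because its value is 0.

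Gene groups were read against all tested genes, of which 46.0% were higher, 9.86% lower and the median was 0.16. The median change also varied with mean level, from 0.49 in the lowest of 4 bins of genes to 0.06 in the highest. Groups were not matched for level, so a group's median may follow from the level of its members, which was not tested. Among 36 immediate early genes 19 were higher and 6 lower (13 and 9 after centring), with a median of 0.20. FOSB, an AP-1 subunit, went from 2.41 and 2.51 to 13.8 and 12.8, a log2 change of 2.39. The zinc finger factors EGR3 (3.49 and 3.44, then 10.6 and 11.8) and EGR2 (5.76 and 5.22, then 16.6 and 15.6) rose by 1.66 and 1.54 on the log2 scale. The orphan receptors NR4A2 and NR4A3 rose by 1.56 and 1.44. EGR1, the most strongly transcribed of these, fell by 0.41, from 605 and 590 to 443 and 454. KLF2 and KLF6, Kruppel-like factors, fell by 0.41 and 0.39. The group thus held genes moving in opposite directions, and within the EGR family EGR2 and EGR3 rose while EGR1 fell, with or without centring. Of 14 feedback genes of MAP kinase signalling, such as the phosphatases DUSP7 (0.71) and DUSP10 (0.51), 9 were higher and 2 lower (6 and 4 after centring).

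Genes of the transcription machinery were read next. The Integrator list held 7 genes, of subunits and of proteins that join the complex, and 3 of them rose. These were the subunit INTS2 and the single-strand DNA binding proteins NABP1 and NABP2, which join Integrator without being INTS subunits. INIP, likewise not an INTS subunit, fell by 0.15. NABP1 went from 84.4 and 81.1 to 154 and 143, a log2 change of 0.84, INTS2 from 7.28 and 6.77 to 11.9 and 12.1 (0.76), and NABP2 rose by 0.53. All 4 kept these calls after centring. Of 7 genes that control the elongation kinase P-TEFb 1 was higher and 0 lower (1 and 4 after centring). The riser was HEXIM1, which holds the kinase inactive, from 122 and 121 to 204 and 200 (0.73 ± 0.03). Of 13 pausing and elongation factors 3 were higher and 1 lower with a median of 0.02, and after centring 0 were higher and 7 lower. Among 13 cleavage and termination genes 2 rose and 3 fell with a median of -0.04 (1 and 9 after centring). ZC3H4, a restrictor of early transcription, went from 15.02 and 13.20 to 35.1 and 36.7, a log2 change of 1.34 ± 0.06. Its partner WDR82 fell by 0.24, and SYMPK, a scaffold of the 3′ end cleavage complex, by 0.35. ZC3H4 was thus the member of this list with the largest change, and its partner moved the other way.

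Groups of genes that answer signalling or stress were read in the same way. Of 24 interferon-stimulated genes 17 were higher and 0 lower, with a median of 0.45, and 14 were higher and 1 lower after centring. MX1, an antiviral GTPase, went from 1.254 and 1.231 to 4.06 and 3.88 (1.60 on the log2 scale), MX2 rose by 1.30 and the exonuclease ISG20 by 0.81. Of 18 Wnt targets 14 were higher and 1 lower (9 and 2 after centring): PROX1 (0.87), EPHB3 (0.86) and APCDD1 (0.85) rose, and AXIN2, the feedback inhibitor of the pathway, fell from 312 and 304 to 257 and 264 (-0.24). Of 17 hypoxia and glycolysis genes 12 were higher and 2 lower (9 and 3 after centring), among them EGLN3 (0.84) and ADM (0.64). TGF-beta and BMP targets numbered 12, of which 7 were higher and 0 lower on both scales, led by the inhibitory SMAD6 (1.53) and the matrix protein TGFBI (0.71). Of 15 NF-kB feedback and chemokine genes 9 were higher and 0 lower (6 and 1 after centring), with BCL3 at 0.68 and CXCL1 at 0.59. The ATF4 stress group had no common direction. It held 5 higher and 4 lower of 14 (4 and 8 after centring), TRIB3 fell by 0.51 and ATF4 itself by 0.32.

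Medians of the housekeeping groups lay below that of all genes. Of 31 cytosolic ribosomal protein genes 2 were higher and 11 lower with a median of -0.09, and after centring 0 were higher and 25 lower. The corresponding figures were 0 and 6 of 26 proteasome genes (0 and 20 after centring), 3 and 8 of 32 spliceosome genes (1 and 25), 3 and 10 of 40 respiratory chain genes (2 and 19) and 3 and 10 of 33 mitochondrial ribosomal protein genes (2 and 18). Single members fell further: NDUFS4 of complex I by 0.61, from 11.8 and 11.3 to 7.62 and 7.35, PSMC6, a proteasome ATPase, by 0.57, MRPL1 by 0.56 and SF3B1, a core splicing factor, by 0.41. Centring took away the rise of the median gene and so added small falls in these groups, and their counts depend on the scale. Ribosomal protein genes have processed copies, and their values are uncertain. S phase genes were higher in 14 and lower in 2 of 22 (9 and 5 after centring), with E2F2 at 0.65 and E2F7 at 0.61, while mitotic genes were higher in 7 and lower in 0 of 23 (4 and 11 after centring).

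**Figure D3:**
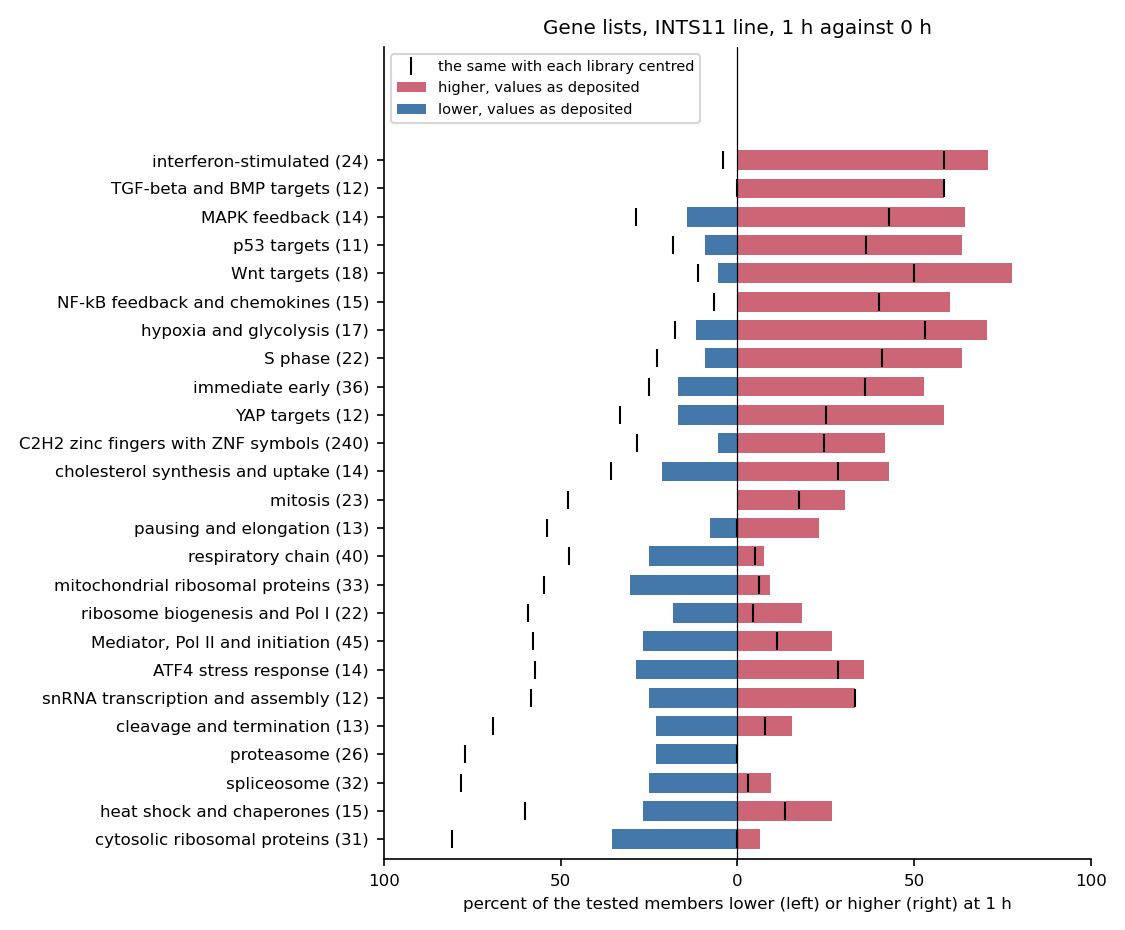
For lists with at least 10 tested members, percent of them (number tested in brackets) called higher (red, right) or lower (blue, left) at 1 h on the deposited scale, with black ticks for the same after centring each library. Interferon-stimulated genes lie at the top by median change and cytosolic ribosomal protein genes at the bottom, and centring moves every list toward lower or leaves it.

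Rises and falls differed in level and length. Genes at least 1.5-fold higher had a median value of 2.07 at 0 h and a median length of 20920 bp, and 231 of the 1004 had fewer than 20 units in each 0 h library. The 31 genes at least 1.5-fold lower had a median value of 13.0 and a median length of 61690 bp, against 13.4 and 32070 bp for all genes tested. In 4 bins by mean level over the 0 h and 1 h libraries, from low to high, the median log2 change was 0.49, 0.17, 0.09 and 0.06. In 4 bins by length, from short to long, it was 0.25, 0.18, 0.12 and 0.11 on the deposited scale and 0.10, 0.02, -0.03 and -0.05 after centring. Spearman's rho across genes, which are not independent replicates and share libraries, was -0.40 with mean level and -0.16 with length. In the N211del line at 1 h rho was -0.36 with the same level and 0.03 with length.

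RefSeq promoters of 300 bases were matched by symbol for 5615 tested genes. The letters CCGGAAGT, a site of ETS factors, stood on either strand in 2.10% of 763 promoters of genes at least 1.5-fold higher, in 9.34% of 578 promoters of lower genes, in 9.09% of 2496 promoters of genes not called, in 7.27% of all tested and in 4.44% of all 27305 promoters. In the same order, AP-1 letters (TGANTCA) stood in 7.21%, 3.81%, 4.57%, 5.04% and 7.76%, and GC box letters (GGGCGG) in 64.6%, 72.7%, 70.8%, 71.3% and 44.6%. TATAAA on the gene's strand stood in 5.64%, 3.29%, 3.53%, 3.69% and 7.71%. The lower set has no fold cut. In the 29 promoters of genes at least 1.5-fold lower, the shares were 10.3% for ETS, 0% for AP-1, 69% for GC box and 6.9% for TATAAA letters. Of the sets given, genes at least 1.5-fold higher thus had the lowest ETS share, and lower genes had nearly the share of genes not called. No test of these shares was made, and the low level of the genes that rose was not taken into account. A match is a description of letters and not of a bound site.

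Changes at 1 h were next set beside 3 h in the same batch, which shares the 1 h and 0 h libraries with the comparisons above. From 1 to 3 h, 1083 genes (15.6%) were called, 33 higher (0.475%) and 1050 lower (15.1%), of which 3 (0.0432%) and 6 (0.0863%) moved at least 1.5-fold. This count was not stable. It was 192 after centring (108 higher, 1.55%, and 84 lower, 1.21%), 1 without 1 h replicate 1, 1 without 3 h replicate 1 and 3 without 3 h replicate 2. Among the 12 largest rises at 1 h 0 were called between 1 and 3 h, and their differences lay between -0.55 and 0.29. SOCS1 changed by 0.10 and ENO3 by -0.13 over that time. Among the 12 falls, MICU2 (-0.22) and FAF2 (-0.15) were called lower again on the deposited scale, and after centring neither was (-0.12, limma adjusted p = 0.114, and -0.05, 0.458). Some genes named for their fall from 1 to 3 h stood nearer their 0 h level at 3 h than at 1 h. HOXD11, a homeobox factor, had 9 to 18 units per library at 0 h and 1 h. Its values were 2.44 and 2.46 at 0 h, 4.34 and 4.05 at 1 h and 2.08 and 2.83 at 3 h. The carrier SLC16A9 held 2.06 and 1.84, then 2.90 and 2.79, then 1.99 and 1.84. Rise and fall share the 1 h libraries, so noise that is high at 1 h would give both, and a return was not tested. HOXD11 also lost its 1 h call with voom (adjusted p = 0.101). IRF2BPL, a transcriptional regulator, rose at each step, from 66.8 and 67.9 to 83.8 and 82.2 and on to 107 and 103, although its first step lost its call after centring (limma adjusted p = 0.071). Of these 3 genes, SLC16A9 (adjusted p = 0.023) and IRF2BPL (0.017) kept the call from 1 to 3 h after centring in limma, and HOXD11 did not (0.051). With only the 1 h and 3 h libraries in the fit, 1 gene of all tested was called. All 12 genes named for their change from 1 to 3 h lost that call under some alternative, so these single changes are uncertain.

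The change at 1 h differed between the INTS11 and INTS8-N211del lines for 3375 genes (48.6%) by an interaction term in limma, 642 (9.24%) more toward higher in the INTS11 line and 2733 (39.3%) more toward lower. The median interaction was -0.16, and after centring the split was 1792 (25.8%) against 1553 (22.3%). Within this, 295 genes fell in the INTS11 line and rose in the N211del line, and 49 did the opposite (235 and 240 after centring). In the N211del line 66.0% of all genes were called higher and 4.92% lower at 1 h (29.5% and 36.1% after centring), and the median gene stood 0.31 higher on the log2 scale. Of the 12 largest rises of the INTS11 line, 9 were called higher there too and 0 lower. So were 42 of the 45 genes at least 3-fold higher with 100 or more units in both 1 h libraries. SOCS1 rose there by 3.12 and DIO3 by 3.28, and their interactions were not called. CARD6 held 0.171 and 0.0956 at 0 h and 2.49 and 2.17 at 1 h in the INTS11 line, and 0 and 0.0949, then 0.0538 and 0.0537, in the N211del line, an interaction of 3.26 ± 0.44 (limma adjusted p = 0.0003). It rose in 1 line and stayed near 0 in the other. NDRG1, a hypoxia-responsive gene, showed the reverse, from 15.3 and 15.1 to 22.8 and 22.5 in the INTS11 line and from 2.005 and 2.331 to 20.04 and 19.48 in the N211del line, an interaction of -2.56 ± 0.08 (limma adjusted p = 3.1e-07). The lines reached similar NDRG1 levels at 1 h from unequal levels at 0 h.

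Among the falls, CEP20 fell from 22.7 and 22.1 to 19.1 and 19.8 in the N211del line, a log2 change of -0.20, and the interaction was -1.06 ± 0.08. PCNP went there from 34.7 and 37.5 to 40.6 and 40.3, called higher at 0.17 on the deposited scale and lower at -0.18 after centring, with an interaction of -1.09 ± 0.07 (-0.89 after centring). ZCCHC10 rose there on both scales, from 11.1 and 11.7 to 15.76 and 15.96 (interaction -1.20). Across the 31 genes at least 1.5-fold lower in the INTS11 line, the median log2 change in the N211del line was 0.09 against -0.64 (-0.26 against -0.79 after centring), and both lay below the median gene of their line. This is a description, since these genes were chosen by the first of the values compared. INSIG1, a brake on sterol synthesis, fell in the INTS11 line from 237 and 227 to 171 and 165 and rose in the N211del line from 64.4 and 69.6 to 98.8 and 98.9. For the immediate early genes the lines also differed: EGR3 rose more in the INTS11 line (interaction 1.37), EGR2 likewise (1.33), and NR4A2 and NR4A3 less (-1.97 and -0.98). In the hypoxia list 16 of 17 genes were lower in the INTS11 line by the interaction and 0 higher (11 and 1 after centring). In the NF-kB list 5 of 15 were higher by the interaction and 1 lower (10 and 0 after centring).

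**Figure D4:**
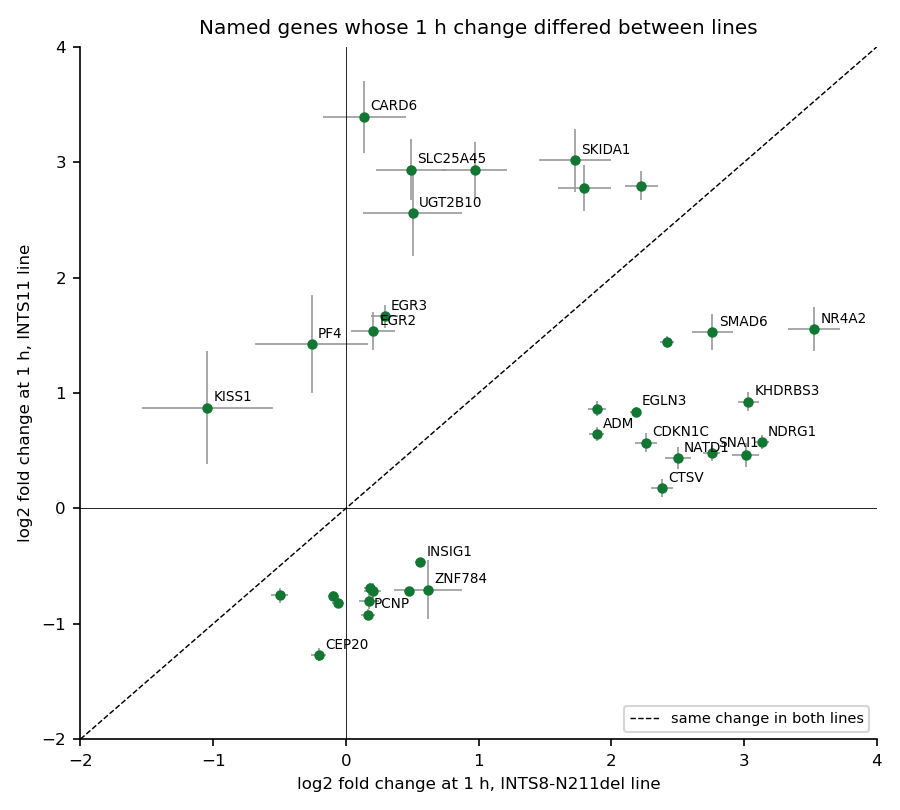
Log2 fold change at 1 h in the INTS11 line (vertical) against that in the INTS8-N211del line (horizontal), with standard errors as bars, for 35 named genes whose interaction was called. Genes on the dashed line would change equally. CARD6 lies above it by 3.26 and NDRG1 below it by 2.56.

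Batch 1 gave other libraries of the INTS11 line, with a vehicle control, after 3 h. There 2575 of 6579 genes were called (39.1%), 1275 higher (19.4%) and 1300 lower (19.8%), and 1686 without 3 h replicate 2. Of 6569 genes tested in both batches, 3050 were higher at 1 h and 1274 in batch 1, and 1171 were higher in both, which is 38.4% of the former and 91.9% of the latter. For lower genes the counts were 685, 1300 and 553, or 80.7% and 42.5%. Genes that were higher at 1 h and lower in batch 1 numbered 73, and 4 went the other way. Batch 1 values carry no library factor, so these shares depend on the scale. After centring, 1895 genes were higher at 1 h, 1719 in batch 1 and 1292 in both (68.2% and 75.2%). For lower genes the centred counts were 2106, 1610 and 1293 (61.4% and 80.3%). Across genes, Pearson's r of the log2 changes was 0.851 and Spearman's rho 0.805, as descriptions. Direction was thus shared by most genes called in both sets of libraries, which differ in time, control and batch.

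Of the 12 largest rises 7 were tested in batch 1 and all 7 were called higher, by 1.42 to 3.38. SOCS1 stood there at 2.33 and 2.91 with DMSO and at 30.9 and 25.6 with dTAG13. ENO3 stood at 2.44 and 2.29 and then at 14.8 and 13.4. Of the 12 largest falls 11 were called lower, and the exception was ZNF784 (-0.33, not called). CEP20 stood at 26.2 and 27.3 and then at 14.6 and 13.0, and PCNP at 43.4 and 42.5 and then at 27.4 and 24.8. Both of these pairs of groups were again apart by far more than replicates. Of all 31 genes at least 1.5-fold lower at 1 h, 28 were called lower in batch 1 and 0 higher. TXNIP was among the 3 that were not called. INSIG1, lower at 1 h, was higher in batch 1, from 41.5 and 43.2 to 55.2 and 56.7. Lists carried over unevenly, read here on the values as deposited and not after centring. In batch 1, 6 of 22 interferon-stimulated genes were higher and 0 lower, and 8 of 17 Wnt targets were higher and 4 lower. Of 14 NF-kB genes 2 were higher and 5 lower, and of 31 cytosolic ribosomal protein genes 22 were lower and 0 higher.

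**Figure D5:**
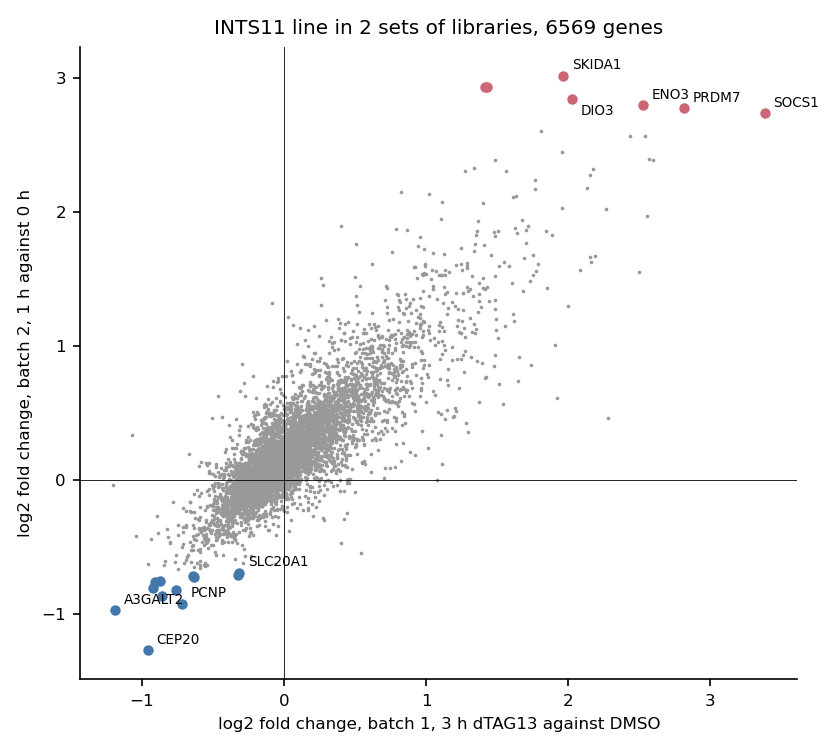
Log2 fold change at 1 h against 0 h in batch 2 (vertical) by that at 3 h of dTAG13 against DMSO in batch 1 (horizontal) for 6569 genes of the INTS11 line, each point a gene. Coloured points are the 12 largest rises (red) and falls (blue) that were tested in both, and every red point lies at 1.42 or more on the horizontal axis.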

How the data were processed

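TT-seq values of DLD1 lines were taken as deposited. The submitters' processing notes name STAR 2.7.5c, Trim Galore 0.6.6, Picard 2.23.3, DESeq2 1.26.0 and SAMtools 1.9 as tools, and mm10 and hg19 as builds, without saying what each did. Per the file names deposited by the authors, the values are FPKM. They behaved instead as whole-number units per kilobase of gene, times 1 factor per library in batch 2, within a tolerance of 0.02. The sources used here do not say how the factors were derived. Log2(value + 0.1) was fitted, for genes whose mean over a batch's 12 libraries was 0.1 or more, with limma 3.58.1 (R 4.3.3), 1 mean per group, trended and robust empirical Bayes, two-sided, with Benjamini-Hochberg adjustment over all genes tested. This scale understates changes of low genes. Counting tests were not used.

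Groups and times came from titles and characteristics, which give 0, 1 and 3 h, whereas the treatment protocol in the labels gives 3 h for all samples. The 1 h label could not be checked from the values. The members and the 35 gene lists were chosen with earlier results of these data known. Named genes were the 12 largest called rises and falls with a mean of at least 1 and groups that did not overlap, the 2 most changed called members per list, the 6 largest interactions and 1 to 3 h changes in each direction, and genes at 0 at 0 h, leaving out non-coding and uncharacterised names. Other named list members were picked after their values were seen. The values of 1 list member are not reported here. Symbols matched the symbol table for 7169 of 7223 genes. On simulated data for 1 h against 0 h with 6950 genes, the fit recovered 9 of 50 genes at 1.25-fold and 40 of 50 at 1.5-fold. It recovered 48 of 50 at 2-fold and 50 of 50 at 3-fold, with 5 false calls among 6750 unchanged genes. The simulation took the library factors as exact, with independent noise at a fixed dispersion and no shift of the median gene. Its changed genes had a mean of at least 1. Errors of the factors, which act on all genes, were not simulated, so the false calls they would give are not counted. Alternatives were pseudocounts of 0.01 and 1, other filters, centring, a replicate block, fewer libraries in the fit, each library left out (the lone sample then assumed to vary like other groups), voom on units, and averaging of pairs within counting noise. Other steps used matplotlib 3.10.9, scipy 1.17.1, pandas 2.3.3 and numpy 2.4.6 in Python 3.11.15.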

Additional observations from a re-analysis of the deposited data

Results flagged for a closer look

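The interaction term of limma, INTS11 line against INTS8-N211del line at 1 h, tests whether a 1 h change differed between the lines. It was called for 35 genes here, which are named rises, falls and interactions, list members with a difference of at least 2-fold, and EGR2, NR4A2, NR4A3 and INSIG1, chosen after their values were seen. All values here are that difference in log2 fold change, positive where the change was more toward higher in the INTS11 line. Among the largest rises, CARD6 differed by 3.26, SLC25A45 by 2.45, ASB2 by 1.96, SKIDA1 by 1.29, PRDM7 by 0.98 and ENO3 by 0.57. The call of PRDM7 was lost under 7 of 17 alternatives, that of ENO3 under 5 and that of SKIDA1 under 2. That of CARD6 was lost under 1 of 16. Positive differences were also called for UGT2B10 (2.06, lost under 2 of 16), KISS1 (1.92), PF4 (1.68), EGR3 (1.37) and EGR2 (1.33). KISS1 was not called at 1 h within either line on the deposited scale, and its difference was lost under 10 of 17 alternatives, as was that of PF4 under 7.

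Among the largest falls the difference was -1.32 for ZNF784, -1.20 for ZCCHC10, -1.09 for PCNP and -1.06 for CEP20. It was -0.98 for PRPS1, -0.92 for AUH, -0.87 for SLC20A1, -0.76 for MICU2, -0.66 for FAF2 and -0.26 for DNAJC13. The call of DNAJC13 was lost under 7 of 17 alternatives, among them centring (-0.06, limma adjusted p = 0.52). CEP20 and DNAJC13 were called lower in the N211del line too, PCNP, ZCCHC10, AUH and SLC20A1 were called higher there, and the other 4 were not called there. After centring, PCNP (-0.18), SLC20A1 (-0.17), MICU2 (-0.41) and FAF2 (-0.45) were called lower there as were CEP20 and DNAJC13, ZCCHC10 (0.13) was called higher, and AUH (-0.15), PRPS1 (-0.17) and ZNF784 (0.27) were not called. INSIG1, lower in the INTS11 line and higher in the N211del line, differed by -1.03.

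Genes that rose less in the INTS11 line were NDRG1 (-2.56), HES2 (-2.55), SNAI1 (-2.28), KHDRBS3 (-2.11), NATD1 (-2.07) and CDKN1C (-1.69), as were EGLN3 (-1.34), ADM (-1.25), SMAD6 (-1.23) and EPHB3 (-1.03), and NR4A2 (-1.97) and NR4A3 (-0.98). CTSV, a lysosomal protease, differed by -2.21, and its 1 h change in the INTS11 line was not called (0.18).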

How the results depend on the processing

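Settings were the pseudocount, the filter, centring, a replicate block, only the libraries compared, voom, averaged pairs and each library left out. The count at 1 h (3882) stayed within 1.5 times under each, at 3176 to 3601 with 1 library left out. Its split did not: 82.4% of calls were higher as deposited and 48.9% after centring, and 425 genes were lower with averaged pairs. Genes at least 1.5-fold higher numbered 868 to 1076 with a library left out and 624 with a pseudocount of 1. Genes at least 1.5-fold lower numbered 22 to 34, 16 with a pseudocount of 1 and 79 after centring. The median shift was 0.12 to 0.19 with a library left out. For 3 h against 1 h the count was 1 to 949 with a library left out, 192 after centring, 1 with only the libraries compared, 2154 with voom and 0 with averaged pairs. The interaction gave 2827 to 3354 with a library left out, with 19.0% of calls higher as deposited and 53.6% after centring. Batch 1 gave 1686 to 2033 with a library left out and 1374 with averaged pairs. The causes were not tested. Replicate numbers did not pair the libraries (correlation of deviations 0.0147), and the replicate block gave 3895 calls at 1 h, 3187 higher and 708 lower. Of 1366 repeats of the 106 named genes at 1 h, 52 lost the call, in 20 genes, and 5 gained it.

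Few units limit the largest rises, and 2 libraries per group without a vehicle limit the comparison.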

Other observations

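Further groups were read at 1 h in the same way. Of 12 genes of small nuclear RNA transcription and assembly 4 were higher and 3 lower (4 and 7 after centring), and the risers were GEMIN6 (0.65) and GEMIN8 (0.56), which assemble Sm rings, the import adaptor SNUPN (0.48) and SNAPC1 (0.46). Of 6 PP2A subunit genes 2 were higher and 1 lower (0 and 4 after centring), PPP2R2A fell by 0.18, and PPP2R3A was called higher at 0.27 but lost the call under 9 alternatives. Of 45 genes of Mediator, RNA polymerase II and initiation 12 were higher and 12 lower (5 and 26 after centring), with MED18 at 0.70, from 30.5 and 33.0 to 48.5 and 54.4, and MED4 at -0.41, from 30.5 and 28.0 to 22.4 and 21.4. Members of 1 complex thus moved in opposite directions, on both scales.

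Of 11 p53 targets 7 were higher and 1 lower (4 and 2 after centring), with FDXR at 0.67 and TP53I3, which overlaps the coding gene FAM228B and is uncertain, at 0.75. Of 12 YAP targets 7 were higher and 2 lower (3 and 4 after centring), and the LIM protein AJUBA went from 60.8 and 58.8 to 89.2 and 89.5 (0.58). Of 14 cholesterol genes 6 were higher and 3 lower (4 and 5 after centring), and PMVK, a kinase of the mevalonate pathway, went from 4.1995 and 4.1975 to 10.3 and 10.7 (1.30). Of 15 chaperone genes 4 were higher and 4 lower (2 and 9 after centring). Of 240 zinc finger genes with ZNF symbols 100 were higher and 13 lower (59 and 68 after centring). Of all genes tested 46.0% were higher and 9.86% lower (29.0% and 30.3% after centring), so fewer of the zinc finger genes were called lower as deposited. Of 9 intestinal epithelium markers tested 3 were higher and 0 lower (1 and 6 after centring). TFF3 and LGALS4, secreted and lectin products of that tissue, were called higher at 0.61 and 1.12 with 40 to 76 and 4 to 16 units per library. TFF3 lost its call under 6 alternatives, among them centring (limma adjusted p = 0.108), and LGALS4 under 3.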
